A study of Mus musculus with 30 samples.

Results

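Sites bound by the vitamin D receptor (VDR) were compared with sites bound by the retinoid X receptor (RXR) in 3T3-L1 pre-adipocytes, a mouse fibroblast line that forms fat cells after hormonal induction. A site was a 400 bp interval in a deposited peak list, and it counted as shared when both lists held the identical interval on chromosomes 1 to 19 or X. By this rule 7914 sites were shared, 3880 were listed for VDR only and 4168 for RXR only. These 15962 sites belonged to 34724 sites that the series' 9 lists held together; the other 18762 sites were listed for neither receptor. Each receptor had 1 chromatin immunoprecipitation (ChIP-seq) library, made with the antibodies VDR (C-20) and RXR (ΔN-197), and RXR is labelled without a subtype. Both libraries came from cells harvested 4 h after induction with 1 μM dexamethasone, 0.5 mM isobutylmethylxanthine, 1 μg/mL insulin and 10% FCS. The labels name no added ligand of VDR or RXR. The 7 other libraries of the same cells and time were ATF2, ATF7, cJun, FOSL2 and JunB, which are bZIP proteins, and the Krüppel-like zinc-finger factors KLF4 and KLF5. No untreated library was used here, and every group shared the induction.

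VDR is a ligand-activated nuclear receptor that is known to bind DNA mainly as a heterodimer with RXR, on repeated half-sites. RXR is the common partner of many other nuclear receptors, among them PPARγ, the receptor that drives fat cell formation, the retinoic acid receptors and the liver X receptors, and it can also pair with itself. In pre-adipocytes, VDR is expressed early in differentiation and its activation is known to restrain fat cell formation. KLF4 and KLF5 are known activators of early adipogenic genes, and cJun, JunB and FOSL2 are subunits of AP-1. ATF2 and ATF7 are close relatives that bind cyclic AMP response elements.

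The lists gave positions without a score, a read number or a control value, so depth was unknown and no site could be weighted by signal. With 1 library per factor there was no replicate check, and all intervals given are 95% intervals that cover counting error over sites only. They compare these lists, not replicate cultures or antibodies, and neighbouring sites are not independent. As a second measure of spread, the class shares, the differences in the mean number of other factors and the odds ratios were repeated on each of the 20 chromosomes. The values on row order, families, combinations and nearest class were not. The genome sequence and the annotation of build mm9 were not used here, so what lies at each site is not given.

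The receptors' lists were of nearly equal length, 11794 sites for VDR and 12082 for RXR, and each covered about the same part of the 34724 sites (34.0% and 34.8%). Shared sites made up 49.6% of the union of both lists (exact interval 48.8 to 50.4), VDR-only sites 24.3% (23.64 to 24.98) and RXR-only sites 26.1% (25.4 to 26.8). Across chromosomes, the shared part of the union had a median of 49.4%, with the lowest value of 39.1% on chromosome X and the highest of 58.4% on chromosome 19. RXR-only sites outnumbered VDR-only sites on 14 of 20 chromosomes. The ratio of VDR-only to RXR-only sites ran from 0.745 on chromosome 9 to 1.29 on chromosome 8, with a median of 0.920.

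Shared sites carried more of the 7 other factors than sites of a single receptor. Shared sites had a mean of 2.99 other factors (SD 1.98 over sites) and a median of 3. VDR-only sites had a mean of 1.23 (SD 1.46) and RXR-only sites a mean of 1.56 (SD 1.64), both with a median of 1. The difference between shared and VDR-only sites was 1.76 factors (1.69 to 1.82), and it had the same sign on 20 of 20 chromosomes, from 1.20 to 2.11. Between shared and RXR-only sites it was 1.43 (1.37 to 1.50), again on 20 of 20 chromosomes, from 1.09 to 1.76. VDR-only sites had fewer other factors than RXR-only sites by a smaller margin: the difference was -0.33 (-0.39 to -0.26), and it was above 0 on 2 of 20 chromosomes. Within steps of 10% of the lists' common row order, described further on, the differences of shared sites were smaller, 0.830 (0.765 to 0.896) and 0.524 (0.455 to 0.592), and that between the single-receptor classes was -0.31 (-0.37 to -0.24).

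The distributions differed at both ends. No other factor was listed at 42.2% of VDR-only sites (exact interval 40.7 to 43.8), 33.6% of RXR-only sites (32.2 to 35.1) and 9.43% of shared sites (8.79 to 10.1). Over all 34724 sites the value was 10.9%, and a site listed for neither receptor has at least 1 other factor by construction. At 4 or more other factors, the order was turned: 38.7% of shared sites (37.6 to 39.8), 13.3% of RXR-only sites (12.3 to 14.4) and 8.81% of VDR-only sites (7.94 to 9.75) carried that many, against 14.1% of all sites. The value over all sites includes the shared sites. Among sites listed for neither receptor, 5.06% (4.75 to 5.38) carried 4 or more, below both single-receptor classes. All 7 other factors were listed at 504 shared sites, 32 RXR-only sites and 13 VDR-only sites.

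**Figure D1:**
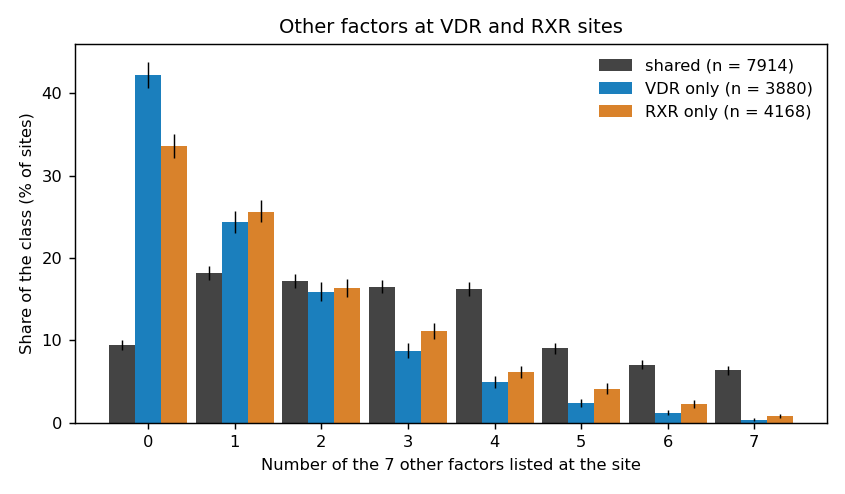
Share of each class of sites (y axis, % of the sites of the class) by the number of the 7 other factors listed there (x axis); error bars are exact 95% intervals for counting error. VDR-only sites peak at 0 other factors with 42.2%, RXR-only sites have 33.6% there, and shared sites 9.43%.

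Read from the other side, the more factors a site held, the more often both receptors were listed. Among receptor sites with no other factor, 19.7% were shared (exact interval 18.4 to 21.0). With 1 other factor the value was 41.6%, with 3 it was 62.0%, and with 4 and 5 it was 74.3% and 73.0%, whose intervals overlapped (72.1 to 76.3 and 70.1 to 75.8). With all 7 it reached 91.8% (89.2 to 94.0). Among sites of a single receptor, the balance moved towards RXR as factors accumulated. VDR-only sites were 53.9% of single-receptor sites with no other factor (52.1 to 55.7), 46.9% with 1 (44.7 to 49.1), 42.2% with 3 (38.7 to 45.7) and 33.1% with 6 (25.4 to 41.5). The value at 7 other factors was 28.9% of only 45 sites (16.4 to 44.3).

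KLF4 and KLF5 were listed most often at shared sites. KLF5 was listed at 81.7% of shared sites (exact interval 80.9 to 82.6), 47.0% of RXR-only sites (45.4 to 48.5) and 36.4% of VDR-only sites (34.9 to 38.0), against 49.3% of all sites. KLF4 was listed at 46.0% of shared sites (44.9 to 47.1), 12.7% of RXR-only sites (11.7 to 13.7) and 10.7% of VDR-only sites (9.72 to 11.7), against 16.9% of all sites. For KLF5 both single-receptor classes thus lay below the value over all sites, which includes the shared sites, and RXR-only sites lay above VDR-only sites. Sites listed for neither receptor held KLF5 in 38.8%, between VDR-only and RXR-only sites, and KLF4 in 6.88%, below both. By construction each of them has at least 1 other factor, so whole-class shares are not on a like base. Since shared sites hold more factors of every kind, the classes were then compared at equal numbers of other factors, from 1 to 6.

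At equal numbers, KLF5 was listed at 87.6% of shared sites (95% interval 86.8 to 88.4), 73.7% of RXR-only sites (72.1 to 75.2) and 67.1% of VDR-only sites (65.1 to 69.1). These shares were weighted to the same mix of numbers in every class. The Mantel-Haenszel odds ratio for KLF5, which compares the classes within each number and pools the result, was 3.53 for shared against VDR-only sites (3.13 to 3.98) and 2.69 against RXR-only sites (2.39 to 3.02). Both were above 1 on 20 of 20 chromosomes. A difference was called where the interval left out 1 and the direction held on at least 15 chromosomes. KLF4 was listed at 41.3% of shared sites (40.3 to 42.3), 23.5% of VDR-only sites (21.5 to 25.5) and 22.3% of RXR-only sites (20.7 to 24.0). Its odds ratio was 2.64 against VDR-only sites (2.32 to 3.01) and 3.04 against RXR-only sites (2.70 to 3.43), both above 1 on 19 of 20 chromosomes. With row order also held equal, all these odds ratios moved nearer to 1 and stayed called. KLF5 then stood at 2.74 against VDR-only sites (2.42 to 3.10) and 1.92 against RXR-only sites (1.69 to 2.17). KLF4 stood at 1.81 (1.58 to 2.08) and 1.92 (1.69 to 2.19).

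The pattern for ATF2, ATF7 and FOSL2 turned when numbers were made equal. Over whole classes these 3 were listed more often at shared sites. ATF2 stood at 31.4% of shared, 18.1% of VDR-only and 23.0% of RXR-only sites, against 33.3% of all sites. ATF7 stood at 24.0%, 12.5% and 13.6% (21.2% of all sites), and FOSL2 at 23.4%, 10.2% and 13.5% (18.1% of all sites). At equal numbers all 3 were rarer at shared sites. ATF2 was then listed at 24.5% of shared sites (23.7 to 25.3), 41.6% of VDR-only sites (39.7 to 43.4) and 41.2% of RXR-only sites (39.6 to 42.8). FOSL2 was listed at 15.9% of shared sites (15.3 to 16.6), 28.7% of VDR-only sites (27.1 to 30.2) and 26.3% of RXR-only sites (24.9 to 27.7).

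Against VDR-only sites, the odds ratios were 0.310 for ATF2 (0.270 to 0.355), 0.324 for ATF7 (0.278 to 0.378) and 0.268 for FOSL2 (0.223 to 0.321). Against RXR-only sites they were 0.319 for ATF2 (0.281 to 0.362), 0.491 for ATF7 (0.427 to 0.565) and 0.337 for FOSL2 (0.288 to 0.396). Each of the 6 values was below 1 on 19 or 20 of the 20 chromosomes. At a fixed number of factors the 7 listings are tied together: where KLF5 takes a place more often, others must take one less often. Counting only the remaining 6 factors loosens this tie, and the ATF2, ATF7 and FOSL2 values then lay nearer to 1, between 0.547 and 0.773, and were still called lower in both contrasts.

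For the Jun proteins the calls at equal numbers depended on how numbers were held equal, and for JunB the direction did too. JunB was listed at 52.1% of shared, 29.2% of RXR-only and 21.1% of VDR-only sites, against 29.0% of all sites, and cJun at 40.5%, 16.9% and 14.2%, against 17.8%. Sites listed for neither receptor, each with at least 1 other factor by construction, held JunB in 20.9% (20.3 to 21.5), near VDR-only sites. They held cJun in 9.12% (8.72 to 9.55), below both single-receptor classes. At equal numbers the odds ratio of JunB was 0.969 for shared against VDR-only sites (0.859 to 1.09, not called) and 0.794 against RXR-only sites (0.711 to 0.887, called lower), but 1.68 and 1.29, both called higher, when only the remaining 6 factors were counted, and 1.23 (higher) and 0.989 (not called) with row order held equal. The odds ratio of cJun was 1.10 against VDR-only sites (0.972 to 1.25) and 1.29 against RXR-only sites (1.16 to 1.45, above 1 on 14 chromosomes), neither called, and 1.80 and 1.83, both called higher, with the remaining 6. With row order held equal, cJun was called higher in both contrasts as well, at 1.35 (1.18 to 1.55) and 1.61 (1.42 to 1.82), and it lay above 1 under each alternative run. Against RXR-only sites, cJun was also called higher, at 1.28, when single-receptor sites that overlap a site of the other receptor were left out. The pooled Jun values also average over numbers with opposite directions. With 2 other factors, JunB was listed at 31.5% of shared and 41.4% of VDR-only sites, and cJun at 18.6% and 29.2%. With 4, JunB was listed at 85.4% and 63.7%, and cJun at 69.0% and 37.9%. A pooled value that was not called thus does not mean equal listing at each number.

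**Figure D2:**
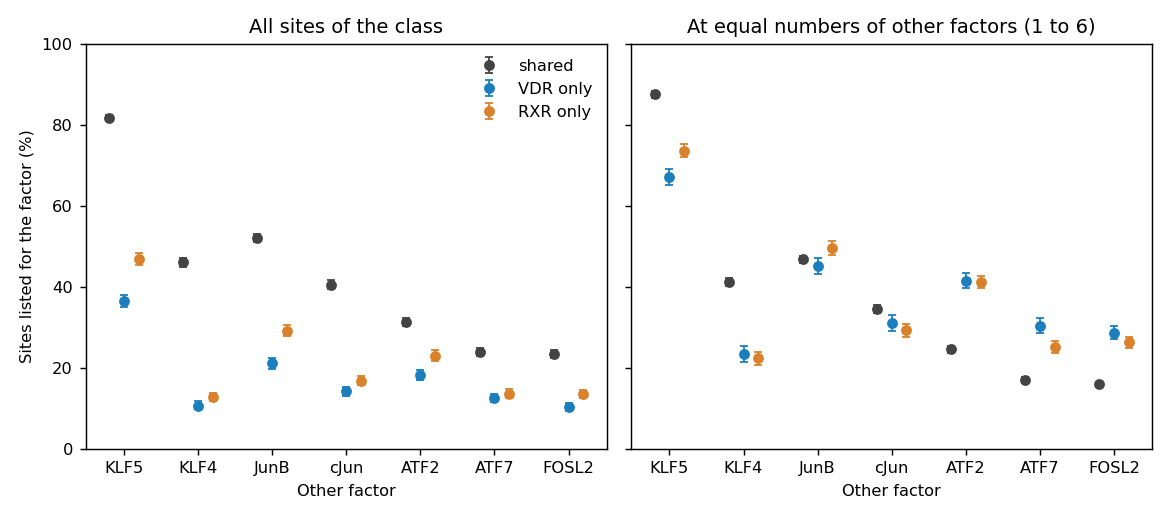
Share of sites listed for each other factor (y axis, %) in shared (grey), VDR-only (blue) and RXR-only (orange) sites, over all sites (left) and weighted to equal numbers of other factors from 1 to 6 (right); bars are 95% intervals for counting error. Left, the grey point is highest for all 7 factors; right, it stays highest for KLF5 (87.6%) and KLF4 (41.3%) and is lowest for ATF2, ATF7 and FOSL2.

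Between the single-receptor classes, 3 of the 7 factors differed, against 5 for shared and VDR-only sites and 6 for shared and RXR-only sites. At equal numbers KLF5 was less frequent at VDR-only than at RXR-only sites (odds ratio 0.753, 0.667 to 0.851, below 1 on 19 of 20 chromosomes). JunB was less frequent as well, with 45.2% of VDR-only sites (43.3 to 47.2) against 49.6% of RXR-only sites (48.0 to 51.3) and an odds ratio of 0.799 (0.701 to 0.910, below 1 on 17 chromosomes). ATF7 was more frequent at VDR-only sites, 30.4% (28.5 to 32.3) against 25.1% (23.6 to 26.7), with an odds ratio of 1.46 (1.24 to 1.72, above 1 on 16 chromosomes). The ATF7 call was lost when the remaining 6 factors were counted (1.22, 1.06 to 1.41) and when row order was also held equal (1.43, 1.22 to 1.69), in both cases because fewer than 15 chromosomes kept the direction. ATF2 (1.03, 0.897 to 1.19), cJun (1.14, 0.991 to 1.32), FOSL2 (1.20, 0.992 to 1.46) and KLF4 (1.13, 0.964 to 1.32) were not called, with intervals that include 1.

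For each factor but JunB, single-receptor sites lay between shared sites and sites without a receptor. At the same mix of numbers, sites listed for neither receptor held KLF5 in 51.1% (50.1 to 52.0) and KLF4 in 15.2% (14.1 to 16.3), and cJun in 23.5% (22.5 to 24.5), below both single-receptor classes. They held ATF2 in 57.6% (56.8 to 58.5), ATF7 in 40.7% (39.6 to 41.9) and FOSL2 in 39.0% (38.2 to 39.9), above both. These values are a description; the difference from the sites without a receptor was not tested.

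By family, 61.6% of shared sites (exact interval 60.5 to 62.7) held a KLF factor together with a bZIP factor, against 29.9% of RXR-only sites (28.5 to 31.3) and 21.3% of VDR-only sites (20.1 to 22.7). KLF factors without any bZIP factor were found at 22.0% of shared, 18.6% of RXR-only and 18.0% of VDR-only sites. A bZIP factor without KLF was found at 6.94% of shared sites (6.39 to 7.52), 17.9% of RXR-only sites and 18.5% of VDR-only sites, whose intervals overlapped (16.7 to 19.1 and 17.2 to 19.7). Among sites without a receptor, 58.7% were of this last kind. KLF factors without any bZIP factor were found at 25.3% of them, above each receptor class. A KLF factor together with a bZIP factor was found at 15.98% of them, below each receptor class. By construction none of the sites without a receptor lacks another factor, so these shares are not on a like base with the receptor classes.

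Among sites with any other factor, KLF5 alone was the most frequent combination in each class, with 1102 shared, 629 RXR-only and 542 VDR-only sites. These were 13.9%, 15.1% and 14.0% of the classes. KLF5 alone was also found at 4103 of the 18762 sites without a receptor, a larger share. Those sites have at least 1 other factor by construction. The set cJun, JunB, KLF4 and KLF5 was the second most frequent at shared sites (681 sites, 8.61%), but was found at 24 RXR-only sites (0.576%), 17 VDR-only sites (0.438%) and 20 sites without a receptor. The pair cJun and JunB with no other of the 7 factors was found at 112 shared, 119 RXR-only and 131 VDR-only sites, and at 435 sites without a receptor. The first 3 were 1.42% of the shared class, 2.86% of the RXR-only class and 3.38% of the VDR-only class. KLF4 and KLF5 as the only other factors were found at 561 shared sites (7.09%), 117 RXR-only sites (2.81%) and 104 VDR-only sites (2.68%). Sites without a receptor held this pair alone in 353 cases.

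At sites with exactly 1 other factor, that factor's identity went with how often both receptors were listed. Over all receptor sites with 1 other factor, 41.6% were shared (40.0 to 43.3). Of receptor sites with KLF4 alone, 49.7% were shared (79 of 159, exact interval 41.7 to 57.7), and with KLF5 alone 48.5% (1102 of 2273, 46.4 to 50.6). With cJun alone the value was 32.6% (26.0 to 39.8) and with JunB alone 28.6% (24.4 to 33.1). With ATF7 alone it was 18.3% (11.7 to 26.5), with FOSL2 alone 18.6% of 43 sites (8.39 to 33.4) and with ATF2 alone 16.9% (12.4 to 22.4), near the 19.7% of sites with no other factor. Among the single-receptor sites, VDR-only sites were 39.4% of those with JunB alone (122 of 310, exact interval 33.9 to 45.0) and 63.8% of those with KLF4 alone (51 of 80, 52.2 to 74.2), against 46.9% over all sites with 1 other factor. For the other 5 factors the value lay between 45.7% and 53.2%. Among sites with 1 other factor, that factor was KLF4 at 5.50% of shared, 5.40% of VDR-only and 2.71% of RXR-only sites. For KLF4, shared sites thus lay near VDR-only sites and above RXR-only sites at this number.

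Where shared sites stood in the lists was examined next. All 9 lists gave the intervals they had in common in 1 order, which does not follow the genome and whose meaning the labels do not state. The lists were merged into a common order, on which 0% is the first row and 100% the last. Shared sites had a median place of 21.3% (quartiles 9.49% and 39.1%), VDR-only sites 51.4% (30.3% and 72.9%) and RXR-only sites 50.4% (30.4% and 70.8%). The medians of VDR-only and RXR-only sites differed by 1.04 percentage points (-0.69 to 2.77), which includes 0. Sites listed for neither receptor had a median of 62.9%. The first 10% of the order held 26.3% of shared sites, 6.52% of VDR-only sites and 4.92% of RXR-only sites. The last 10% held 0.531%, 8.40% and 7.20% of them.

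Along each list the shared part fell at each step of 10% of the rows. In the first 10%, 89.4% of VDR sites were listed for RXR (exact interval 87.5 to 91.1) and 92.3% of RXR sites for VDR (90.7 to 93.7). In the last 10% the values were 21.0% (18.7 to 23.5) and 21.6% (19.3 to 24.0). The number of other factors fell along the same rows, from a mean of 4.21 in the first 10% of the VDR list to 0.566 in the last, and from 4.33 to 0.703 in the RXR list. How much of the fall in sharing goes with row order and how much with the number of factors was therefore read at equal numbers.

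At equal numbers of other factors, shared sites still stood earlier. With no other factor, the median place was 48.4% for shared, 64.6% for VDR-only and 64.7% for RXR-only sites. With 3 other factors it was 20.1%, 37.6% and 40.1%, and with 6 it was 10.5%, 27.1% and 27.4%. With 7 it was 5.999%, 20.7% and 15.9%. VDR-only and RXR-only medians had no fixed order across numbers. Conversely, in the earlier 50% of the rows of the VDR list, 37.4% of sites with no other factor were shared (32.8 to 42.2), against 74.9% with 1 (71.8 to 77.9) and 93.4% with 4 (91.7 to 94.8). In the later 50% the values were 29.9% (27.9 to 32.0), 52.9% (50.4 to 55.4) and 71.0% (66.4 to 75.3). The RXR list gave 42.3%, 73.7% and 90.9% in its earlier rows and 33.1%, 49.3% and 64.7% in its later rows. Sharing thus differed by number within the same part of a list, and by part of the list at the same number. Parts of 50% are wide, and sites with more factors stood earlier, so row order was not held fixed within them.

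**Figure D3:**
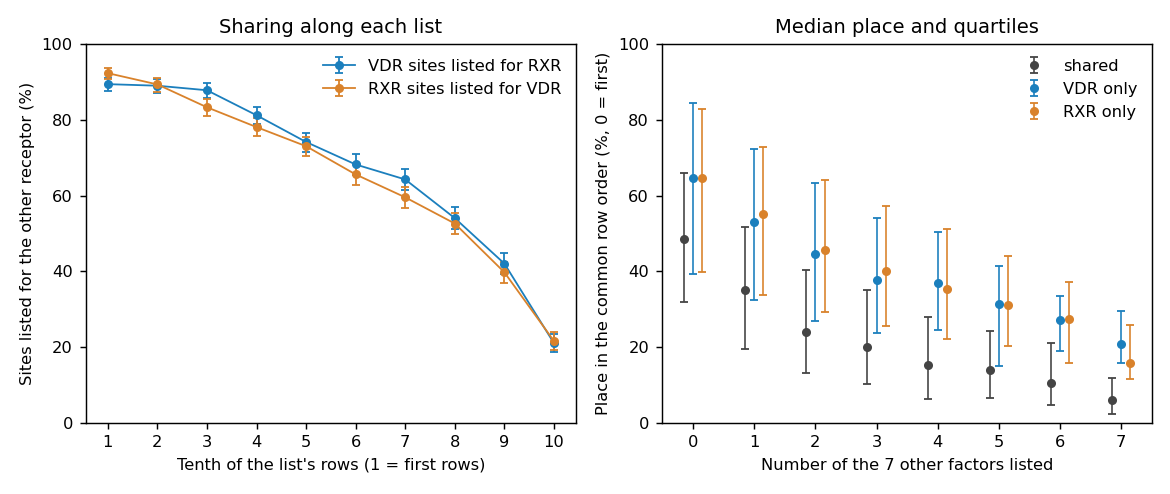
Left, share of each receptor's sites listed for the other receptor (y axis, %) by step of 10% of the list's rows (x axis), with exact 95% intervals; right, median place in the common row order (y axis, %, 0 is the first row) by number of other factors (x axis), with quartiles as bars. Sharing falls from 89.4% and 92.3% in the first 10% to 21.0% and 21.6% in the last, and the shared median lies below both single-receptor medians at each number.

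Related pairs of factors gave the same kind of fall with other end points. JunB was listed at 93.7% of cJun sites in the first 10% of the cJun list (exact interval 91.5 to 95.5) and 40.7% in the last (36.8 to 44.7). KLF5 was listed at 97.1% of KLF4 sites (95.4 to 98.3) in the first and 52.8% (48.7 to 56.9) in the last. ATF2 was listed at 87.0% of ATF7 sites in the first 10% (84.3 to 89.3) and at 199 of 737 in the last. Read from the longer list of each pair, the values were lower at both ends. They fell from 73.3% to 16.6% for cJun at JunB sites, from 69.2% to 4.03% for KLF4 at KLF5 sites and from 70.9% to 12.2% for ATF7 at ATF2 sites. The last values of VDR and RXR, 21.0% and 21.6%, lay between those from the longer and those from the shorter lists. VDR and RXR had lists of nearly the same length, so the values are set side by side without a test.

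A minority of single-receptor sites stood early in the order. The first 10% held 253 VDR-only and 205 RXR-only sites beside 2081 shared ones. The early VDR-only sites had a mean of 1.66 other factors and 83 of them had none; the early RXR-only sites had a mean of 2.36 and 39 had none; the shared ones had a mean of 4.28 and 28 had none. KLF5 was listed at 42.7% of the early VDR-only, 68.3% of the early RXR-only and 96.9% of the early shared sites. cJun was listed at 9.49%, 13.7% and 57.0% of them. Chromosome 10 held 9.09% of the early VDR-only sites, 3.90% of the early RXR-only sites and 7.83% of the early shared sites, against 6.31%, 5.97% and 6.08% of the whole classes.

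Near misses between the lists were few. Different intervals of the common set had midpoints at least 201 bp apart, so that a receptor's interval could overlap a neighbouring one. Of VDR-only sites, 48 (1.24%, exact interval 0.914 to 1.64) overlapped an RXR site by at least 1 bp, and of RXR-only sites, 70 (1.68%, 1.31 to 2.12) overlapped a VDR site. Within 1 kb, an RXR site was found for 5.90% of VDR-only sites (5.18 to 6.69), and a VDR site for 8.16% of RXR-only sites (7.34 to 9.03). For sites listed for neither receptor the values were 5.44% (5.12 to 5.78) for an RXR site and 5.02% (4.71 to 5.34) for a VDR site. The VDR-only value lay near that of sites without a receptor, and the RXR-only value above it. The base differed: any site lay within 1 kb of 14.4% of VDR-only, 19.1% of RXR-only and 19.6% of receptor-free sites. Of VDR-only sites with any site that near, 229 of 559 had an RXR site, against 1021 of 3676 receptor-free sites. Of such RXR-only sites, 340 of 797 had a VDR site, against 942 of 3676. These differences were not tested. The overlapping VDR-only sites had a mean of 1.17 other factors and the others 1.23; for RXR-only sites the means were 1.37 and 1.56.

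VDR-only sites were the more isolated class. The nearest other site of any list lay at a median distance of 7918 bp from VDR-only sites (quartiles 2187 and 24570 bp), 5437 bp from RXR-only sites (1464 and 17014 bp) and 4754 bp from shared sites (1399 and 15295 bp). Another site was found within 10 kb of 54.8% of VDR-only sites (exact interval 53.2 to 56.4), 64.0% of RXR-only sites (62.5 to 65.4) and 66.0% of shared sites (65.0 to 67.1), against 60.6% of all sites. No other site lay within 1 kb of 85.6% of VDR-only sites (84.4 to 86.7), 80.9% of RXR-only sites (79.7 to 82.1) and 80.3% of shared sites (79.4 to 81.2), against 81.0% of all sites. At both distances VDR-only sites thus had a neighbour less often than all sites.

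The difference between the single-receptor classes held at equal numbers of other factors, from 0 to 7. The odds ratio of another site within 10 kb was 0.709 for VDR-only against RXR-only sites (0.647 to 0.775, below 1 on 17 of 20 chromosomes) and 1.33 for shared against VDR-only sites (1.22 to 1.45, above 1 on 17 chromosomes). Shared and RXR-only sites were not told apart within 10 kb (0.907, 0.833 to 0.988, below 1 on 14 chromosomes). Within 1 kb, shared sites had a neighbour less often than RXR-only sites (0.834, 0.752 to 0.924, below 1 on 18 chromosomes), and the difference between shared and VDR-only sites was not called (1.14, 1.01 to 1.28, above 1 on 14 chromosomes). With 3 other factors, 57.1% of VDR-only sites (51.6 to 62.4), 68.5% of RXR-only sites (64.0 to 72.7) and 64.1% of shared sites (61.4 to 66.7) had a neighbour within 10 kb. With 6, the intervals of all 3 classes overlapped.

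**Figure D4:**
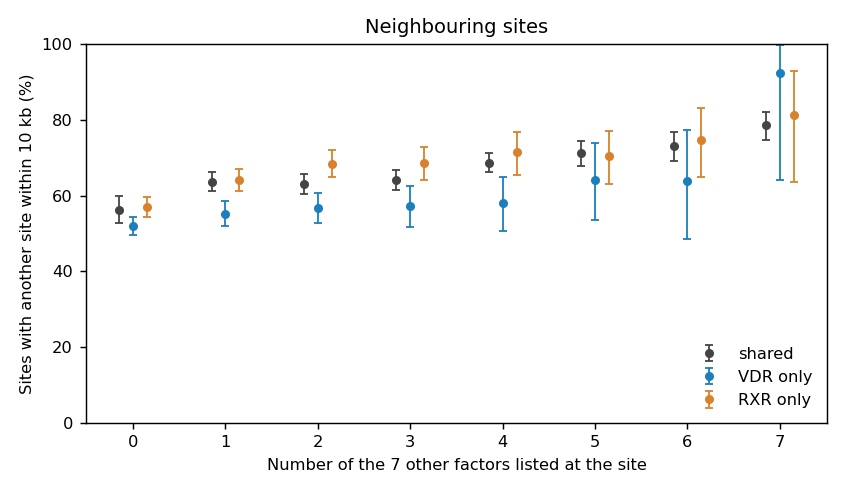
Share of sites with another site of the common set within 10 kb, midpoint to midpoint (y axis, %), by number of other factors at the site (x axis), with exact 95% intervals. From 1 to 4 other factors the VDR-only points (blue) lie between 55.2% and 57.9%, below the shared (grey) and RXR-only (orange) points; at 7 the VDR-only class has only 13 sites.

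In each class, the nearest site was of the same class more often than over all sites. Where the nearest site lay within 10 kb, it was a VDR-only site for 13.8% of VDR-only sites (exact interval 12.4 to 15.4), 8.48% of RXR-only sites (7.45 to 9.60) and 9.61% of all sites. It was an RXR-only site for 17.5% of RXR-only sites (16.06 to 18.98), 11.0% of VDR-only sites (9.71 to 12.4) and 12.8% of all sites. A shared site was nearest for 34.7% of shared sites (33.4 to 36.0), 29.1% of VDR-only sites (27.1 to 31.1) and 30.4% of RXR-only sites (28.7 to 32.2), against 25.6% of all sites. At equal numbers of other factors, an RXR-only site within 10 kb was less frequent around VDR-only than around RXR-only sites (odds ratio 0.541, 0.475 to 0.616, below 1 on 19 of 20 chromosomes). A shared site within 10 kb was less frequent around VDR-only sites as well (0.740, 0.669 to 0.818, below 1 on 19 chromosomes), so the lower value was not limited to RXR-only neighbours. A VDR-only site within 10 kb was more frequent around VDR-only sites (1.23, 1.07 to 1.42), but this held on 12 chromosomes and was not called.

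Single sites show the extremes of each class (mm9, 1-based positions). The first 2 VDR-only sites with all 7 other factors lay on chromosome 1, from 94696247 to 94696646 and from 122133017 to 122133416, at places 4.00% and 16.3% of the common order. The first 2 such RXR-only sites lay on chromosome 1, from 121022084 to 121022483 and from 164006644 to 164007043, at 62.1% and 40.5%. Being the first by position, these sites do not stand for their classes: both RXR-only sites lay beyond the upper quartile of the 32 RXR-only sites with 7 other factors (25.9%), whose median of 15.9% was before the VDR-only median of 20.7%. Among sites with no other factor, the VDR-only sites farthest from any other lay on chromosome 4 from 91031182 to 91031581, with 1201 kb to its nearest neighbour, and on chromosome 3 from 158856149 to 158856548, with 539 kb. For RXR only they lay on chromosome 1 from 103731362 to 103731761, with 3645 kb, and on chromosome 6 from 104603385 to 104603784, with 2116 kb.

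Stretches of up to 50 kb with the most sites of a class differed in company. For shared sites this was chromosome 10 from 116562634 to 116612093, with 13 shared, 3 VDR-only, 1 RXR-only and 11 other sites. For VDR-only sites it was chromosome 10 from 107599809 to 107649090, where 6 VDR-only sites lay beside 6 shared, 1 RXR-only and 18 other sites. For RXR-only sites it was chromosome 6 from 31009112 to 31039275, with 6 RXR-only, 3 shared, 0 VDR-only and 5 other sites. The stretches held 28, 31 and 14 sites of all lists.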

How the data were processed

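Per the labels' protocols, chromatin was cross-linked in 1% formaldehyde for 10 min, sonicated and immunoprecipitated. Bowtie, HOMER, FastQC and the build mm9 are named in the submitters' processing notes without roles. Neither the peak threshold nor how the common intervals and their row order were made is stated in the labels. The authors deposited start and end positions of 400 bp intervals for 9 factors with 1 library each. Of 30 labelled samples, 21 were not analysed here.

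Sites on chromosome Y (2) were left out. The row order of intervals in common was identical in 36 of 36 pairs of lists. The lists leave some neighbouring places undecided: 2 merged orders differed by a median of 2 places and at most 330. Shares carry exact Clopper-Pearson intervals, odds ratios Robins-Breslow-Greenland intervals, and differences of means and weighted shares normal intervals. There were 21 odds ratios for listings, 7 in each of 3 contrasts, with no adjustment for their number beyond the chromosome rule. The odds ratio calculation was tested on simulated listings for VDR-only against RXR-only sites. The tie among the 7 listings at a fixed number was not part of that simulation. The distance and merging steps were tested on made-up inputs, and the other calculations were not simulated. Sites were named by position by a rule: most other factors, most isolated, and densest stretch. The classes, comparisons and rule were chosen with earlier results of these data known. Python 3.11.15, numpy 2.4.6, pandas 2.3.3, scipy 1.17.1 and statsmodels 0.14.6 were used.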

Additional observations from a re-analysis of the deposited data

How the results depend on the processing

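The classes rest on identical intervals in lists without scores, so no stricter peak threshold could be set, and depth limits are unknown. No paired analysis was possible because each factor had 1 library. With midpoints within 1 kb counted as shared, 69.0% of VDR and 68.3% of RXR sites were shared; among sites with at least 1 other factor, 76.2% and 72.1%; in the earlier 50% of each list's rows, a choice made after seeing the data, 84.3% and 83.2%. The differences in the mean number of other factors kept their sign and stayed clear of 0 under all 10 alternatives, including each other list left out. Without strata, the odds ratios of shared against VDR-only sites turned to 2.06 for ATF2, 2.21 for ATF7, 2.68 for FOSL2 and 4.06 for JunB, and against RXR-only sites to 1.53, 2.00, 1.96 and 2.63. For VDR-only against RXR-only sites they turned to 0.742 for ATF2, 0.905 for ATF7, 0.818 for cJun, 0.731 for FOSL2 and 0.822 for KLF4. With strata of the remaining 6 factors, JunB turned to 1.68 and 1.29 in the contrasts with shared sites, and ATF2, cJun and KLF4 to 0.912, 0.994 and 0.998 between the single-receptor classes. With row order also held equal, added after seeing the data, JunB was 1.23 against VDR-only sites. KLF4 and KLF5 stayed higher at shared sites under all 6 alternatives. Shared sites stood earlier than VDR-only and RXR-only sites in the common order, with differences of -30.2 and -29.1 percentage points; these were -35.7 and -35.1 within the receptors' own lists and -17.8 and -17.8 at equal numbers of factors. For another site nearby, shared against VDR-only sites gave 1.14 within 1 kb, and shared against RXR-only sites gave 0.834 within 1 kb, 1.02 within 50 kb, 1.10 without strata and 0.867 with row order held equal. The causes of these changes were not tested.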
